A study of Mus musculus with 2 samples.

Results

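Small leucine-rich proteoglycans are secreted proteins built around a stretch of leucine-rich repeats, and 9 of their genes, Lum, Dcn, Bgn, Fmod, Ogn, Omd, Aspn, Prelp and Podn, were followed here in cultured stroma of the fetal mouse thymus. They were selected on measured values, since Lum and Dcn had higher signals in reaggregation thymus organ culture (RTOC) than in flat dish culture while other mesenchyme genes had lower ones, and every probe named for one of the 9 genes was then taken. The array holds 12 such probes among 41174 probes that are not controls, and the 9 genes stand among 27670 named genes. Because that choice used the ratio of RTOC over flat dish culture, the members' ratios are given below as a description and no test is reported for them.

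The study asked what controls transcription of Psmb11, the thymoproteasome subunit of cortical epithelium. Its arrays served to look for transcription factors that follow Psmb11 between cultures, and compared stromal cells of C57BL/6 mouse fetuses in RTOC with the same kind of cells in two-dimensional (2D) culture. In RTOC, dispersed cells are placed in a small volume on a porous membrane and pack into a tissue again, whereas cells of 2D culture attach flat to a dish. Before that, whole thymus lobes had spent, in medium with 1.35 mM deoxyguanosine, which is toxic to developing haematopoietic cells, 8 days (fetuses of embryonic stage E14.5) or 9 days (E15.5) as organ cultures, and RNA was taken 72 h after the cells were dispersed and plated. Each stage was measured on 1 array with 2 dyes, 2D culture in Cy3 and RTOC in Cy5, and the 2 arrays were taken as the replicates of a single contrast. All groups share the strain and the deoxyguanosine treatment, no sorting step is named for these cultures, and how many fetuses or litters were pooled is not given in the sources used here. Both arrays carry the dyes the same way round, so a preference of a probe for a dye and the culture cannot be told apart, and neither can stage, days in organ culture and array. In bulk RNA, fewer cells of a type and less RNA per cell cannot be told apart either.

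The leucine-rich repeats of these proteins fold into a curved solenoid that binds collagen, and most members carry sulfated sugar chains. Decorin, biglycan and asporin form one branch of the family, of which decorin and biglycan carry chondroitin or dermatan sulfate whereas asporin has a run of aspartate in place of the chain. Lumican, fibromodulin, PRELP and osteomodulin form another branch, in which keratan sulfate is the usual chain. Osteoglycin and podocan belong to further branches. The proteins are known for setting the diameter and spacing of collagen fibrils in cornea, skin, tendon and bone, and decorin, biglycan and asporin also bind growth factors of the TGF-beta family. Decorin and lumican are commonly used as markers of fibroblasts, those of the thymus included.

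What the array measured of each member is a stretch of 60 bases. The probes of Dcn and Bgn are printed whole, since these near relatives had ratios of opposite sign, and capitals mark the longest run of bases that the probe shares with a probe of another member.
Dcn: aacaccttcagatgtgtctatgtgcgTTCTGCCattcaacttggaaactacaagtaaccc
Bgn: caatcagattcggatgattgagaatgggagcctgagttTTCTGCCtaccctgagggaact
That run was the same 7 bases in both probes. Over all 12 probes the longest run shared with a probe of another member was between 6 and 10 bases, the latter between the brighter probe of Prelp and the dimmer probe of Dcn. The probes of Lum, Aspn and Ogn, which carry the highest ratio of the members well above background throughout, the widest spread between arrays and the larger of 2 changes of sign, are shown by their first 30 bases, in lower case throughout.
Lum: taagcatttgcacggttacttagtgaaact
Aspn: ctcaactcataataaagcttcaagtattca
Ogn: cattaaagcatctgtgaactgtaaggccac

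The family split in direction. A probe was tested where at least 1 of its channels was well above background on each array, a flag that Feature Extraction sets from the local background, and 7 of the 9 genes passed. Lum, Dcn and Aspn were higher in RTOC on both arrays, Bgn and Fmod were lower on both, and Ogn and Prelp changed sign between the arrays. Omd and Podn were not well above background in any channel. Over the 16133 genes tested, 42.1% were higher on both arrays, 37.8% were lower on both and 20.1% had opposite signs, so the members' split of 3, 2 and 2 is read only as a description. Values below are signals of the brightest probe of a gene after quantile normalization over the 4 channels, in arbitrary units, and log2 ratios of RTOC over 2D culture. Signals of different genes come from different probes and are not compared.

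**Figure D1:**
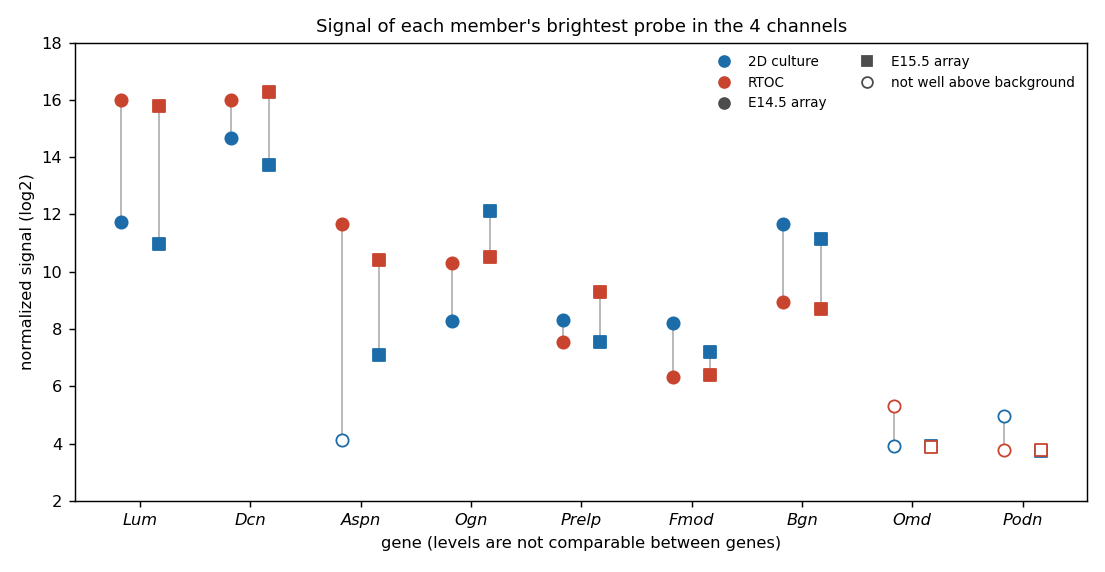
Normalized signal on a log2 scale of the brightest probe of each member in 2D culture (blue) and RTOC (red) for E14.5 (circles) and the E15.5 array (squares), with open symbols where a channel was not well above background and a line joining the cultures of an array. The red symbols lie above the blue ones on both arrays for Lum, Dcn and Aspn, below them for Bgn and Fmod, and on opposite sides for Ogn and Prelp.

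Lum, the core protein of lumican, which limits the diameter of collagen fibrils and keeps the cornea clear, had the highest ratio of the members that were well above background in all 4 channels. Its signal was 3380 in 2D culture and 65800 in RTOC for E14.5. For E15.5 it was 2020 in 2D culture and 57200 in RTOC. The cultures did not overlap, and the RTOC signals of the 2 arrays lay within 1.15-fold of each other. The share of all tested genes without overlap is not given, so a lack of overlap is only a description, here and for the genes below. The log2 ratio was 4.28 for E14.5 and 4.82 for E15.5. It averaged 4.55 ± 0.38 (SD, n = 2 arrays), which is 23.4-fold. Of all tested genes, 0.273% had a mean ratio as high, Lum itself included. Since the rise of Lum was part of the choice of members, nothing is read from this rank.

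Dcn, the core protein of decorin, which coats collagen fibrils and binds TGF-beta, was also brighter in RTOC. Its signal was 25900 in 2D culture and 64900 in RTOC for E14.5, and 13500 and 79000 for E15.5. The log2 ratios were 1.33 and 2.55 and averaged 1.94 ± 0.86 (SD, n = 2 arrays), which is 3.83-fold. Both cultures stayed apart, but the ratio of the E15.5 array was the larger, and the 2D signal differed 1.91-fold between the arrays against 1.22-fold for the RTOC signal. A second, dim probe carries the name Dcn in the files but was designed on a cDNA clone described as unclassifiable. It was well above background in RTOC only, on both arrays, with log2 ratios of 1.54 and 1.82, and because its 2D signal is only a bound it shows RTOC at least 1.12-fold higher.

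Aspn, the core protein of asporin, which competes with decorin for collagen and dampens TGF-beta signalling, had the widest spread between the arrays. Its 2D signal for E14.5 was 17.4, not well above background, against 3280 in RTOC. For E15.5 the 2D signal was 137 and the RTOC signal 1360, both well above background. The log2 ratios were 7.56 and 3.31 and averaged 5.43 ± 3.0 (SD, n = 2 arrays). With the E14.5 2D signal taken as a bound, RTOC was at least 7.66-fold higher on that array. The quantile-normalized signals of the E15.5 array gave 9.89-fold. The bound was computed after other normalization steps, given with the processing, so the 2 folds are not compared. The direction was shared by both arrays, whereas the size for E14.5 rests on a signal near the background: after normexp background correction with an offset and loess normalization the log2 ratios were 3.05 and 1.44.

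Bgn, the core protein of biglycan, which resembles decorin and in soluble form is known as a ligand of Toll-like receptors, went the other way. Its signal was 3280 in 2D culture and 496 in RTOC for E14.5, and 2240 and 412 for E15.5. The cultures did not overlap, and the arrays' signals of 1 culture lay within 1.46-fold of each other. The log2 ratios were -2.72 and -2.45 and averaged -2.58 ± 0.20 (SD, n = 2 arrays), which is 6.00-fold lower in RTOC, and 1.98% of all tested genes had a mean as low. After normexp and median centring the mean was -1.60. A second Bgn probe was well above background in 2D culture of the E14.5 array alone, with log2 ratios of -2.37 and -0.77.

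Fmod, the core protein of fibromodulin, which shares a collagen site with lumican and activates the crosslinking enzyme lysyl oxidase, was lower in RTOC by less. Its signal was 294 in 2D culture and 80.4 in RTOC for E14.5. For E15.5 it was 145 and 84.4. The RTOC signals, close to the background though flagged as well above it, were within 1.05-fold of each other. The difference in ratio thus came with the 2D signals, which differed 2.03-fold. The log2 ratios were -1.87 and -0.78 and averaged -1.32 ± 0.77 (SD, n = 2 arrays). Its mean moved to -0.34 after normexp and loess, with the direction kept.

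Ogn, the core protein of osteoglycin or mimecan, a collagen-binding protein of many connective tissues, had opposite directions on the arrays. For E14.5 its signal was 312 in 2D culture and 1270 in RTOC. For E15.5 it was 4490 in 2D culture and 1460 in RTOC. The RTOC signals were within 1.15-fold of each other, and the 2D signals differed 14.4-fold, so the change of sign lies in the 2D channel. The log2 ratios were 2.03 and -1.62, and their difference of 3.65 was matched or exceeded in size by 29 of the 16133 tested genes (0.180%). At least 2-fold changes in opposite directions were seen in 45 tested genes (0.279%), Ogn among them. After normexp and median centring the log2 ratios were 1.38 and -1.02. With 1 array for each stage, the difference was not tested.

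Prelp, a heparin- and collagen-binding protein of basement membranes and cartilage, changed sign the other way round. Its brighter probe gave 322 in 2D culture and 187 in RTOC for E14.5, and 188 and 628 for E15.5. Here the RTOC signals differed 3.36-fold and the 2D signals 1.71-fold. The log2 ratios were -0.78 and 1.74, and a difference of this size was seen in 0.899% of tested genes. After normexp and median centring they were -0.14 and 0.79. The second Prelp probe was not well above background in any channel.

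Omd, a keratan sulfate protein of bone, gave signals between 14.8 and 39.9 over the 4 channels, and Podn, a collagen-binding protein first described in the kidney glomerulus, between 13.5 and 31.0. None of these was well above background, so no ratio is drawn from them.

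**Figure D2:**
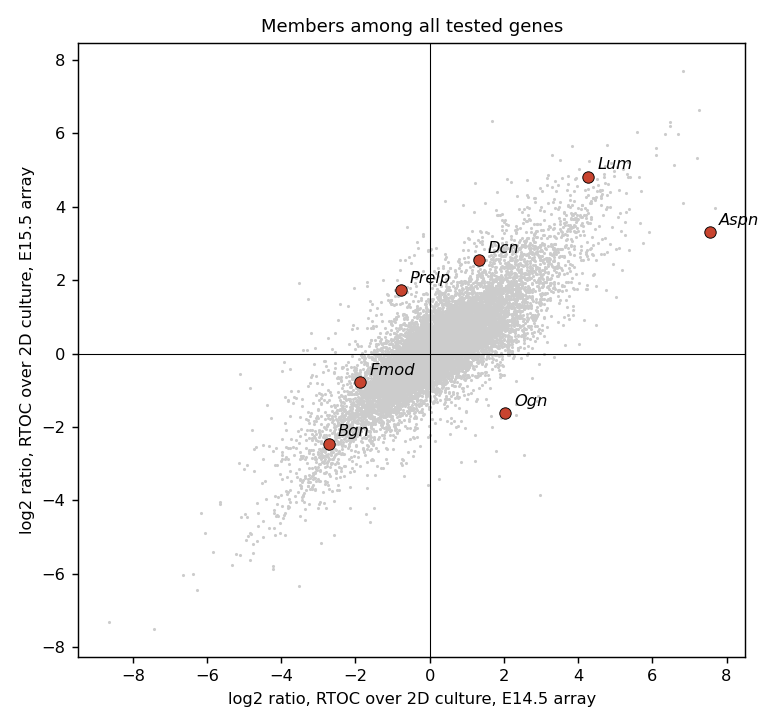
Log2 ratio of RTOC over 2D culture for E14.5 (horizontal) and the E15.5 array (vertical) for the 16133 tested genes (grey) and the 7 tested members (red, labelled). Lum, Dcn, Bgn and Fmod lie along the main cloud, Aspn lies far to the right at 7.56 and 3.31, and Ogn and Prelp lie in the quadrants of opposite sign.

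Several genes of the family are neighbours in the genome, in blocks on chromosomes 10, 13 and 1. Others, Bgn and Podn among them, have no family gene beside them. The ratios are given along these neighbourhoods. Position played no part in the choice of members, whereas the direction of Lum and Dcn did. Positions are those of the mouse assembly GRCm38.p6, whose table gives only the outer ends of a gene, so exons and introns are not named. On chromosome 10, Dcn (97479500 to 97518163) is followed by Lum (97565501 to 97572703), by Kera (97606962 to 97613688) and by Epyc (97644068 to 97681908). Kera encodes keratocan, a keratan sulfate protein of the cornea, and Epyc encodes epiphycan, a protein of growth cartilage. Epyc and Kera, like Lum and Dcn, had higher signals in RTOC on both arrays. The brighter probe of Epyc rose, with signals of 85.6 and 1880 for E14.5 and of 54.4, not well above background, and 998 for E15.5. Its mean log2 ratio was 4.33 (SE 0.256, limma, adjusted p = 0.0016), and its second probe gave 4.53. Kera was well above background in RTOC only, with signals of 267 and 209 against 15.7 and 18.5 in 2D culture, so it was at least 1.51-fold higher in RTOC (limma on the unbounded values, adjusted p = 0.00175). After normexp and loess its mean was 0.63 and it did not pass (limma, adjusted p = 0.0522). Ccer1, the next gene after Epyc, was not well above background in any channel.

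On chromosome 13 lie Ecm2 (49504810 to 49532789), Aspn (49544443 to 49567565), Omd (49582462 to 49592612) and Ogn (49608015 to 49624501). Ecm2, an extracellular matrix protein with leucine-rich repeats, gave 80.7 and 62.3 in RTOC against 16.3 and 16.4 in 2D culture, and with the 2D signals as bounds was at least 1.13-fold higher (limma on the unbounded values, adjusted p = 0.00485). After normexp and loess its mean was 0.19 (limma, adjusted p = 0.314). For E14.5 Ecm2, Aspn and Ogn had higher signals in RTOC, but the 2D signals of Ecm2 and Aspn were not well above background there. For E15.5 Aspn was higher and Ogn lower, and the 2D signal of Ecm2 was again not well above background. Cenpp, a centromere gene, is annotated from 49464025 to 49652950 and so spans the whole block. Its log2 ratios were 1.98 and 0.51 (mean 1.25, limma, adjusted p = 0.0683). Nol8, the gene that follows Ogn, had a mean of -0.50 (limma, adjusted p = 0.206).

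On chromosome 1, Prelp (133910304 to 133930102) and Fmod (134037254 to 134048280) lie next to each other, and Optc, which encodes opticin of the vitreous, ends 615 bp before Prelp. Optc was not well above background in any channel. Fmod and Prelp were both below 0 for E14.5 and parted for E15.5. Btg2, an antiproliferative gene that follows Fmod, had a mean of -0.99 (limma, adjusted p = 0.0368). Bgn is annotated on the X chromosome from 73483601 to 73495936. Its neighbour Haus7 had a mean of -0.02 (limma, adjusted p = 0.958), and Atp2b3 on the other side was well above background in 1 channel only. Podn lies on chromosome 4 from 108014793 to 108031954 between Slc1a7, not well above background in any channel, and Scp2, which had a mean of 1.21 (limma, adjusted p = 0.0508).

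**Figure D3:**
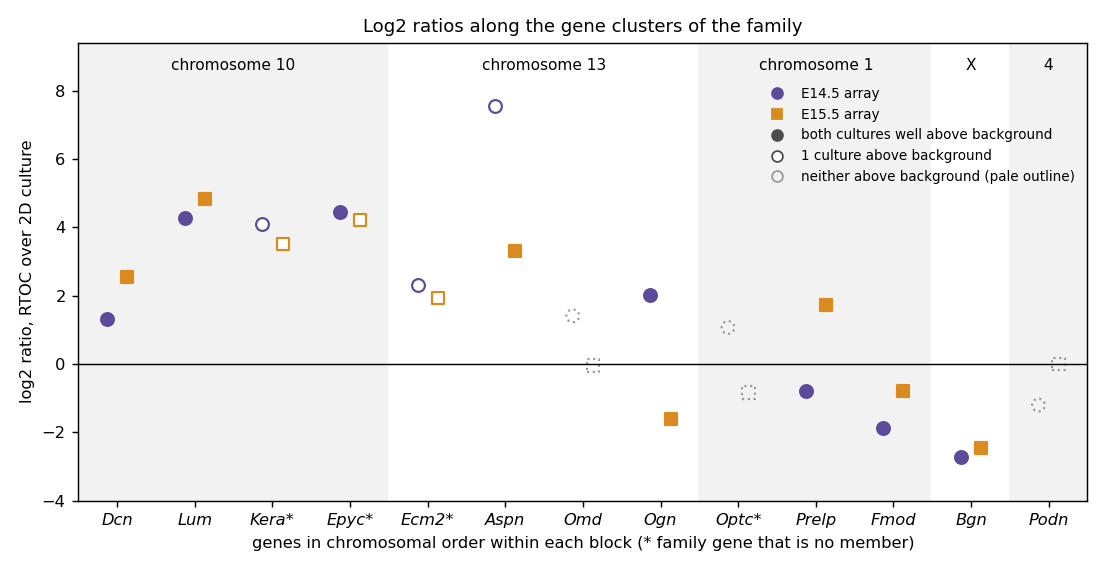
Log2 ratio (RTOC over 2D culture) for the members and the family genes of their blocks in chromosomal order, for the E14.5 array (circles) and the E15.5 array (squares). Symbols are filled where both cultures were well above background, open where 1 was and pale dotted where neither was. On chromosome 10 Kera and Epyc lie above 0 on both arrays, as do Lum and Dcn, whose direction was part of the choice, and on chromosome 13 the 2 arrays part at Ogn.

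Of 10 family genes that are no members, 6 were tested. Kera and Ecm2 passed the filter through RTOC alone, and Epyc did so on the E15.5 array, so their 3 higher calls are not read as a count for the list. Over all tested genes 16.6% rose and 12.0% fell by limma's adjusted p. After normexp and loess Epyc alone of the 3 passed (mean 1.92, limma, adjusted p = 0.0278). Tsku, Chad and Chadl were well above background in all 4 channels, and 0 of them passed in either direction, also at an unadjusted p under 0.05 by limma. Tsku, a secreted inhibitor of Wnt and TGF-beta signalling, had a mean of -0.69 (limma, adjusted p = 0.177). Chad, which binds integrins in cartilage, had a mean of 0.07 and its relative Chadl one of -0.32, and neither passed (limma, adjusted p = 0.853 and 0.370). Optc, Nyx, Nepn and Podnl1 did not pass the filter on low signals.

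Promoter sequence was looked at for Aspn and Ogn, the tested members of chromosome 13, and for Bgn, the member lower in RTOC on both arrays with the smallest spread. RefSeq's table for GRCm38.p6 holds windows for 7 of the 9 members but none for Lum or Dcn, whose promoters were not searched. In each window the 250 bases before the annotated start were searched on both strands. The letters searched were TATAAA for the TATA box, TGANTCA for AP-1, GGAATG for TEAD, GGGCGG for the GC box, and those of the CArG box, and capitals mark each match. Aspn lies at chr13:49544193-49544442, Ogn at chr13:49607765-49608014 and Bgn at chrX:73483351-73483600, all on the plus strand.
Aspn: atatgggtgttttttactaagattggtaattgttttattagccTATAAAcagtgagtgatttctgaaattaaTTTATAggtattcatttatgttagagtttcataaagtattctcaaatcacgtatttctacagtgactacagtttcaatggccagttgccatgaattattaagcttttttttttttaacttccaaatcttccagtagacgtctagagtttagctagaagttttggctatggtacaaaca
Ogn: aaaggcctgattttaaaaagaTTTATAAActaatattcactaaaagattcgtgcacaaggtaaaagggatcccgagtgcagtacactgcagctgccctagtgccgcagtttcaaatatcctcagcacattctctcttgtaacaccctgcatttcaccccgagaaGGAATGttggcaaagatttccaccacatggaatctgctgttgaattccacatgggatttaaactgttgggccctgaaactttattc
Bgn: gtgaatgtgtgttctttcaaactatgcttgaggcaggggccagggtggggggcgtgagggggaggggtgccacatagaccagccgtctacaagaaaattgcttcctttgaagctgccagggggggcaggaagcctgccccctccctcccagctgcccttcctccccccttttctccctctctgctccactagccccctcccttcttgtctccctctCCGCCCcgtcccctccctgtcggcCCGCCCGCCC
Aspn and Ogn each held 2 matches to TATAAA, on opposite strands and, in Ogn, overlapping, between 229 and 173 bases before the start. Ogn also held 1 match to GGAATG, 86 to 81 bases before the start. TATAAA was found in 12.4% of all 32851 windows of this length and GGAATG in 12.6%. Bgn held 3 matches to GGGCGG, the last of which overlap, a motif found in 32.7% of windows. G and C made up 64.4% of its window, against 42.0% in that of Ogn and a median of 52.4% over all windows. The windows of Fmod, Omd and Prelp held none of the 5 motifs, and of the 2 windows of Podn 1 held matches, 2 to GGGCGG. AP-1 (6.75% of windows) and the CArG box (1.47%) were found in no window of the members searched, which leave out Lum and Dcn. A match says only that the letters occur.

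The sugar chains of these proteins are built by enzymes whose genes were taken as lists. Of 24 tested genes for chondroitin and dermatan sulfate, 3 rose and 7 fell, with a median log2 ratio of -0.12, where that of all tested genes was 0.05. Papss2, among those that fell, was well above background in 2D culture only, and was at least 1.18-fold lower in RTOC. With normexp and loess 3 were called higher and 3 lower (limma, adjusted p). With normexp and median centring 3 and 0 were called (limma, adjusted p), or 5 and 5 at an unadjusted p under 0.05. The excess of lower calls thus varied with the processing, and which of its steps mattered was not tested. Chst3, which sulfates chondroitin at carbon 6, rose by a mean of 1.76 (SE 0.265, limma, adjusted p = 0.00843), and its signals were 187 and 166 in 2D culture and 547 and 646 in RTOC. Chst15, which adds a second sulfate, had a mean of 1.69 and Papss1, which makes the sulfate donor, one of 1.25. Among those that fell were Chst7 (-1.88), another chondroitin sulfotransferase, B4galt7 (-1.30), which builds the linker to the core protein, and Chpf2 (-1.12), a chain polymerizing factor. Of 9 tested genes for keratan sulfate, 1 rose and 2 fell, with a median of -0.52. The one that rose was Chst1, which sulfates the galactose of keratan. Its signals were 814 and 467 in 2D culture and 2560 and 2810 in RTOC, with no overlap, and its mean was 2.12 (SE 0.320, limma, adjusted p = 0.00845). The sialyltransferases St3gal1 (-1.14) and St3gal2 (-1.21) fell.

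Of 24 tested collagens and fibril proteins that members bind, 5 rose and 12 fell, and their median log2 ratio was -1.22. Many of them are mesenchyme genes, whose lower signals were part of the reason for the choice of members, so nothing is read from the balance of calls in this list or the next ones. With normexp 3 were called higher and 11 (loess) or 8 (median centring) lower. Thbs1, an adhesive matrix protein, fell by 4.66 on the log2 scale (limma, adjusted p = 0.0016), Lox, the lysyl oxidase that crosslinks collagen, by 2.99 and Col11a1, a chain of a fibril-nucleating collagen, by 2.96. Matn2, a filament-forming adaptor, rose by 2.46, Col14a1, a fibril-associated collagen that decorin binds, by 1.08 and Fbn2, a microfibril protein, by 1.05. Col1a1 and Col3a1, chains of the fibrils that decorin and lumican coat, were picked after their values were seen. Col1a1 fell from signals of 196000 and 177000 in 2D culture to 35700 and 48500 in RTOC (mean -2.16, limma, adjusted p = 0.0055). Col3a1 had 29400 and 31300 in 2D culture and 46300 and 44700 in RTOC (mean 0.58, limma, adjusted p = 0.135).

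Growth factors, receptors and ligands of the CCN family that are known to bind members made up a list of 21 tested genes. By limma's adjusted p 0 rose and 10 fell, with a median of -0.83. With normexp and median centring 6 were called lower. At an unadjusted p under 0.05, 0 were higher by limma and 2 by the methods' t-test. Under the methods' t-test after adjustment no gene of the 7 lists passed in either direction, and unadjusted 7 were higher and 18 lower. Ccn2, which decorin binds, had signals of 329000 and 270000 in 2D culture and of 12200 and 6220 in RTOC, and fell by 5.10 on the log2 scale (limma, adjusted p = 0.0016). Ccn4, another CCN protein that decorin and biglycan bind, fell by 3.19 and Met, a receptor tyrosine kinase to which decorin binds, by 2.98. Of 17 proteases and inhibitors that process the members or their collagens, 1 rose and 5 fell, with a median of -0.73, and with normexp and loess 3 were called lower. Pcolce2, an enhancer of procollagen processing, rose by 2.33, Timp1, an inhibitor of matrix metalloproteinases, fell by 3.53, the collagenase Mmp13 by 2.50 and the aggrecanase Adamts5 by 1.30 (limma, adjusted p between 0.00172 and 0.0310). Of 21 tested core proteins of other proteoglycans, 5 rose and 8 fell, with a median of -0.41. Of those that rose, Spock3 and Tgfbr3 were well above background in RTOC only, and were at least 1.09-fold and 1.1-fold higher. With all 4 channels well above background 3 rose and 8 fell. With normexp and loess 2 were called higher and 7 lower, and with normexp and median centring 2 and 2. Spock2 (2.03) and Gpc1 (1.34) rose, and Cspg4 or NG2 (-2.67), the hyaluronan receptor Cd44 (-2.02) and Sdc1 (-1.43) fell. Esm1 rose by a mean of 4.01 with log2 ratios as far apart as 1.67 and 6.35.

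**Figure D4:**
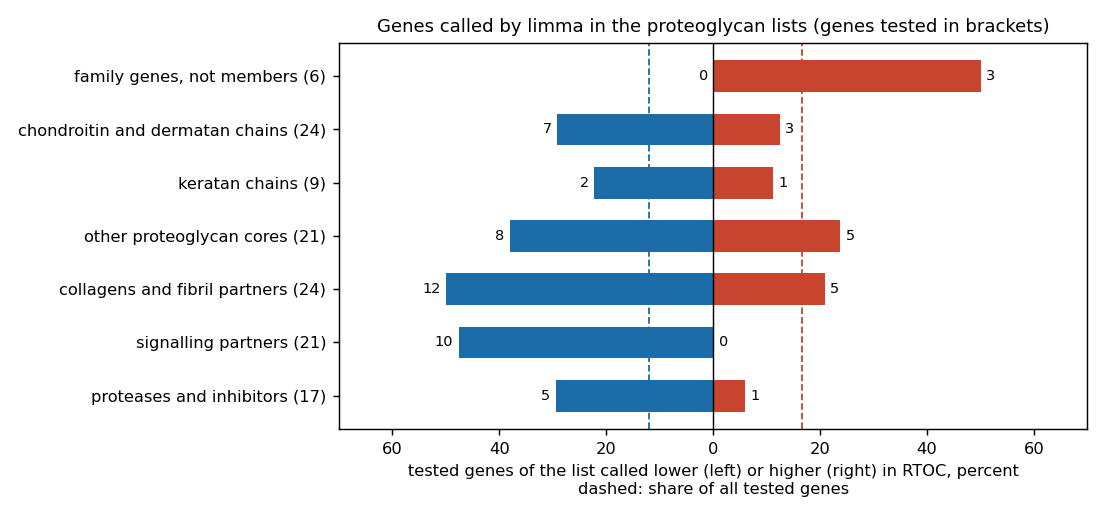
Share of the tested genes of each proteoglycan list that limma called lower (blue, to the left) or higher (red, to the right) in RTOC, with the number of genes at each bar and dashed lines at 12.0% and 16.6%, the shares of all tested genes. The list of collagens and fibril partners has 12 genes called lower of 24, and of the 3 family genes called higher, Kera and Ecm2 had 2D signals not well above background on either array and Epyc on the E15.5 array. Spock3 and Tgfbr3, called higher among other proteoglycan cores, had 2D signals not well above background on either array. Papss2, called lower, had RTOC signals not well above background on either array.

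Together the 7 lists hold 122 tested genes, of which 18 rose and 44 fell. Of all tested genes 16.6% rose and 12.0% fell. The pooled count includes lists from whose calls nothing is read above, so it is given only as a description. With normexp and loess 11 rose and 32 fell, and with normexp and median centring 11 and 21. With all 4 channels well above background 14 rose and 43 fell.

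Markers of the cells that could carry these transcripts moved as well. Of 21 tested mesenchyme genes, 12 were lower on both arrays, 3 higher on both and 6 opposite, and since lower mesenchyme genes were part of the reason for the choice of members, nothing is read from this count. The 3 higher genes were Pdgfra, with log2 ratios of 1.90 and 3.78, Fap (2.16 and 2.63) and Snai2 (1.03 and 1.33). Signals of the list summed to 404000 and 224000 in 2D culture and to 177000 and 155000 in RTOC, a sum that the brightest probes dominate. Foxf1 was not well above background in any channel. Of 14 genes of adventitial fibroblasts 2 rose and 6 fell (summed signal 175000 and 133000 in 2D culture, 85000 and 105000 in RTOC). Over all tested genes 16.6% were called higher and 12.0% lower. These fibroblasts are mesenchymal too, so nothing is read from their count either. Fbln1, a fibulin of elastic matrix, rose by 1.41 and Cd34 by 0.97, and Fbln2, Ly6a and Mfap5 fell by 2.38, 2.02 and 1.71 (limma, adjusted p between 0.00355 and 0.0463).

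Of 8 smooth muscle genes 5 fell, among them Tagln by 4.33, Cnn1 by 4.02 and Acta2 by 3.0, and 1 rose, Rgs5 of pericytes by 3.25. Their summed signal was 600000 and 524000 in 2D culture and 75200 and 51300 in RTOC, and Des was not well above background. Smooth muscle is mesenchymal as well, so nothing is read from its count. For this and the lists that follow, the shares over all tested genes were 16.6% called higher and 12.0% called lower. Of 6 tested genes of tendon, cartilage and bone 2 rose and 3 fell. Of the 12 on the array, 5 (E14.5) and 4 (E15.5) were well above background in 2D culture, against 7 and 7 in RTOC. Nothing is therefore read from the higher calls, nor from the lower ones, since these tissues are mesenchymal too. Runx2, Scx and Sox9 fell by 3.02, 1.22 and 1.16, and Col10a1, Ibsp, Bglap and Dmp1 were not well above background in any channel. All 11 thymic epithelial genes, Foxn1 and Psmb11 included, were well above background in all 4 channels, which fits the label of thymic stroma, and 6 rose and 2 fell. All 6 tested endothelial genes rose, but 2 of them (Cdh5 and Tie1) passed the filter through RTOC alone and 2 more (Pecam1 and Cldn5) did so on the E14.5 array, and only Emcn and Esam were well above background in all 4 channels. The list had a summed signal of 707 and 695 in 2D culture and of 7310 and 11500 in RTOC. Of 11 haematopoietic genes 6 rose and 0 fell by limma's adjusted p, and 0 were lower at an unadjusted p under 0.05 by limma or by the methods' t-test (summed signal 15800 and 14300 against 61200 and 64800). By sign alone 7 of the 11 were higher on both arrays, 3 were lower on both and 1 was opposite. The part of any of these cell types in the members' ratios was not tested.

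Among 13965 genes that were well above background in all 4 channels, those whose pair of log2 ratios lay nearest to that of Lum were Ces1d, Klf15, Abat, Ifi27l2a and Shisa2. Their distances from Lum, in log2 units over 2 arrays, were 0.225, 0.338, 0.339, 0.344 and 0.410. Klf15 had log2 ratios of 4.02 and 5.03, and Ces1d of 4.50 and 4.77. None of the 5 is a matrix gene of the lists above. The share of such genes among the 13965 is not given, and the rise of Lum was part of the choice of members, so nothing is read from this.

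**Figure D5:**
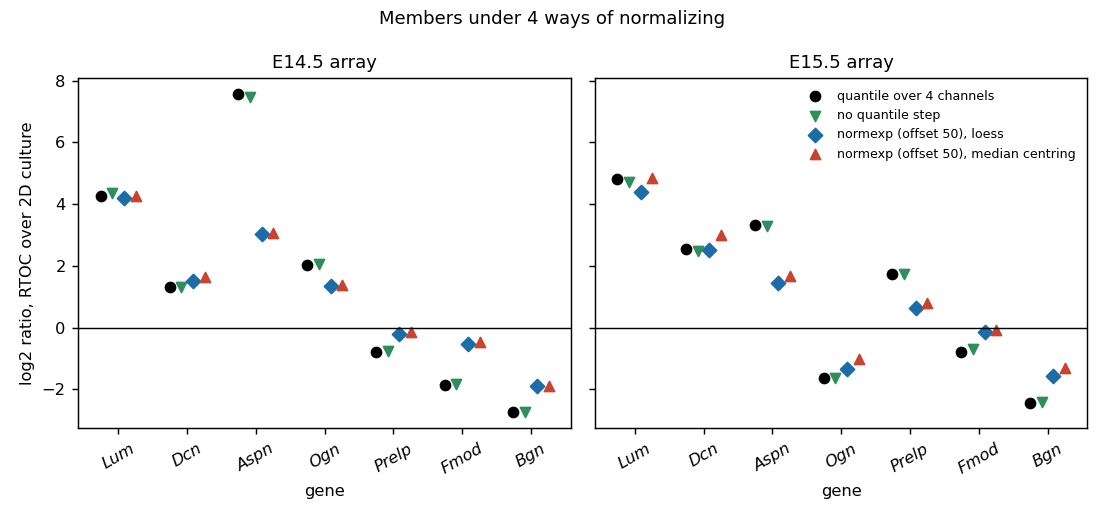
Log2 ratios (RTOC over 2D culture) for the 7 tested members in E14.5 (left) and the E15.5 array (right) under 4 ways of normalizing the arrays. Lum and Dcn stay within a narrow range, the ratios of Aspn, Bgn, Fmod, Ogn and Prelp shrink where normexp adds an offset of 50, and no member changes its direction on either array.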

How the data were processed

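Two-colour Agilent arrays of RNA from 2D culture (Cy3) and RTOC (Cy5) were analysed, 1 for E14.5 and 1 for E15.5 stroma, both on 1 slide and in 1 scan. The authors ran Feature Extraction (version 11.5.1.1 in the submitters' processing notes, 9.1.3.1 in the file header), and the deposited files give for each spot an intensity before and after background subtraction and dye normalization. A log10 ratio with its error was deposited too, and the submitters' value table repeats it for every probe (deposited log10 values equal to red over green processed signal within 5.0e-10). The deposited p-value of each spot, from an error model of a single array, was not used. Labels and methods name different RNA kits, and the header and the methods name different scanners.

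Control spots and outlier spots (5 on E14.5, 1 on E15.5) were left out, processed signals were quantile normalized over 4 channels, as the methods state, and replicate spots averaged. Names came for 22951 of 41174 probes from RefSeq accessions, for 6659 from the symbol and for 3109 from an older symbol in RefSeq's table for GRCm38.p6, and 8455 kept the name in the files. Of the listed genes, Hspg2 and Prg4 matched no probe by name, and Wisp1, Ctgf and Emr1 were matched as Ccn4, Ccn2 and Adgre1. The brightest probe stood for a gene. Log2 ratios were tested against 0 with limma 3.58.1 in R 4.3.3 (lmFit, eBayes, two-sided, Benjamini-Hochberg, threshold 0.05) for 23692 probes with at least 1 channel well above background on each array. With 1 residual degree of freedom, p-values rest largely on the spread pooled over probes, and they measure only the spread between these 2 arrays. An exact sign-flip test over 2 arrays cannot go below p = 0.5. Of the steps, only the limma fit was tried on simulated log ratios with independent noise and known changes. The normalization, the filter and the bounds were not part of that simulation. "At least N-fold" was computed after normexp (offset 50), loess and Aquantile, from a bright channel and the lowest signal well above background, and is open to dye bias.

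Well above background were 53.1% (2D culture) and 56.4% (RTOC) of the probes for E14.5, and 53.5% and 61.0% for E15.5, and the spread between spots of 245 probes with 5 or more spots was 0.1 (median SD, log2). The number of arrays limits the precision.

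Genes named were every member, up to 3 called genes of each list in each direction that were well above background throughout, neighbours of family genes, and the 5 genes nearest to Lum. The members and lists were chosen with earlier results of these data known. Alternatives were normexp with loess, Aquantile or median centring, no quantile step, outlier spots kept, a gene taken as the median of its probes, no filter or a strict filter on dim probes, trend and robust eBayes, the channels as separate samples, the methods' t-test, and each array alone. Python 3.11.15 and matplotlib 3.10.9 drew the figures.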

Additional observations from a re-analysis of the deposited data

Results flagged for a closer look

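Ogn and Prelp were singled out because the arrays of the 2 stages gave opposite directions with all 4 channels well above background. Ogn had log2 ratios (RTOC over 2D culture) of 2.03 and -1.62 in the order E14.5, E15.5, a difference of 3.65, and it lay in 2D culture, where the signals were 312 and 4490. The log2 ratio of Prelp was -0.78 and 1.74, a difference of -2.52, with RTOC signals of 187 and 628. Each stage has 1 array, so neither difference was tested, and an effect of stage cannot be told apart from one of the array or of the days before plating.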

How the results depend on the processing

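The counts of members higher (3) and lower (2) on both arrays, and the direction of each member on each array, were kept under all 6 alternatives to the normalization, the outlier flags and the choice of probe. Not all of these could alter the members' ratios. Aquantile left each ratio as it was after normexp and loess, the choice of probe changed Dcn alone, and keeping outlier spots left the ratios nearly the same. Mean log2 ratios moved by more than the SD between arrays after normexp for Bgn (-1.73 with loess, -1.60 with median centring, against -2.58), Fmod (-0.34 and -0.27 against -1.32) and Aspn (2.25 and 2.37 against 5.43). With 1 array alone the mean ran from -1.62 to 2.03 for Ogn and from -0.78 to 1.74 for Prelp, which reverses both, and a single array allows no limma test. Over all probes limma called 6821 (3610 higher, 3211 lower), 3676 after normexp and loess with or without Aquantile, 2883 (2203 higher, 680 lower) after normexp and median centring, 4033 with no replicate block (the channels as separate samples in place of pairs on an array), 0 with no filter on dim probes (10666 at an unadjusted p under 0.05), and the methods' t-test called 0 after adjustment and 3540 unadjusted. Median centring puts the median of tested probes at 0.064 (E14.5) and 0.19 (E15.5). Genes of the 7 proteoglycan lists called higher were 18, and 11 under each of the normexp settings, 0 with no filter (17 unadjusted) and by the adjusted t-test and 7 by the unadjusted t-test. Those called lower were 44, and 21 with median centring, 29 with no replicate block, 0 with no filter (47 unadjusted) and by the adjusted t-test and 18 unadjusted. The cause was not tested. The same replicate number marks both channels of an array, so the block is the array itself. Signals near background limit Aspn, Fmod, Kera, Epyc, Ecm2, Spock3, Tgfbr3, Papss2 and the second probes of Dcn and Bgn.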
